A study of Mus musculus with 16 samples.

Results

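The change from day 3 to day 6 of reprogramming was measured in mouse embryonic fibroblasts (MEFs) that had been transfected with siRNAs against *Bard1* (siBard1). The comparison used 4 of the 16 bulk RNA sequencing libraries of the series, 2 from day 3 and 2 from day 6, and the genes whose log2 CPM (log2 of read counts scaled to a common library size) averaged 0 or more over the 16 libraries, which were 14028 of the 18990 genes in the table. All cells were wild-type BL6 MEFs at passage 2, carried lentiviruses for the doxycycline-inducible tet-STEMCCA cassette (Oct4, Sox2, Klf4 and c-Myc, together OSKM) and for rtTA, and were transfected with pooled siRNAs in suspension before the cassette was induced. All groups also grew with doxycycline, LIF, ascorbic acid, chiron (a GSK3 inhibitor that raises Wnt signaling) and an Alk5 inhibitor (which blocks the TGF-β receptor). The groups set beside siBard1 received non-targeting siRNA (nt), siBrca1 or siWdr5 and were sampled on the same days, with 2 libraries per group and day from independent experiments. The labels do not say how much of each culture was reprogramming, so fewer cells of a kind and less RNA per cell cannot be told apart in any value below.

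BARD1 is the obligate partner of BRCA1. Their RING domains form a ubiquitin ligase, and the complex is best known for homologous recombination repair of DNA breaks and for the protection of replication forks. WDR5 is a core subunit of the MLL/SET1 complexes that methylate histone H3 at lysine 4. In MEFs expressing OSKM, fibroblast genes are silenced early, an epithelial program is switched on during the mesenchymal-to-epithelial transition, and the endogenous pluripotency network is activated last.

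Of the siRNAs against *Bard1*, 2 were read from the siRNA library, while the paper describes pools of 3 per gene. The 2 are shown as examples of the reagents that targeted the transcript. Their antisense strands are printed 5′ to 3′, with the seed (bases 2 to 8) in capitals and a DNA overhang at the 3′ end.
siRNA against exon 2 of *Bard1*: aGAAGAUGugcucacaucctc
siRNA against exon 3 of *Bard1*: uUGUCGGUuuaucuugaggtc
Each matched 1 site of 19 bases in the coding sequence of *Bard1*, on the minus strand of GRCm38 (mm10; GENCODE vM21). The exon 2 site lies at chr1:71089475-71089493 and the exon 3 site at chr1:71088167-71088185, within the 11-exon gene at chr1:71027498-71103146. Which siRNAs of the library made up the pool for these libraries is not given in the sources used here.

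The siBard1 libraries held 12943067 to 20085723 reads in genes, within the 11169738 to 26832534 of the series, and 3 reads corresponded to 0.141 to 0.226 CPM in them. The first principal component (56.9% of the variance) separated the days in every condition, with siBard1 at −36.9 and −38.4 on day 3 and at 37.1 and 47.2 on day 6. The nt libraries moved from −18.3 and −23.9 to 56.9 and 56.0 on the same axis. Fragments of ribosomal RNA, which the library protocol removes, were fewer in siBard1: *CT010467.1* stood at 5.39 and 98.6 CPM on day 3 and at 220 and 556 CPM on day 6 in siBard1, against 1013 to 3248 CPM in the 4 nt libraries. Their part in the results was not tested.

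*Bard1* itself was at 18.0 and 20.8 CPM in the siBard1 libraries of day 3 and at 12.6 and 14.5 CPM in those of day 6. In the nt libraries it was at 30.5 and 29.1 CPM on day 3 and at 11.3 and 14.0 CPM on day 6. Both siBard1 libraries lay below both nt libraries on day 3, and on day 6 the libraries of siBard1 and nt overlapped. The lower level on day 3 was not particular to siBard1: *Bard1* was at 14.4 and 9.07 CPM in siBrca1 and at 13.9 and 15.3 CPM in siWdr5, below both siBard1 libraries. Within siBard1 the change from day 3 to day 6 was −0.52 on the log2 scale (SE 0.21, adjusted p = 0.0621, limma with Benjamini-Hochberg adjustment over 14028 genes), and in nt it was −1.25.

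The transcripts of *Brca1* and *Wdr5* did not pass both thresholds in siBard1. *Brca1* was at 57.8 and 66.1 CPM on day 3 and at 41.3 and 41.5 CPM on day 6 in siBard1, a log2 change of −0.58 (SE 0.22, adjusted p = 0.0472). In nt it went from 82.4 and 78.0 to 33.2 and 42.6 CPM. *Wdr5* was at 96.6 and 92.0 CPM on day 3 and at 89.2 and 112 CPM on day 6 in siBard1, where the days overlapped. In nt, *Wdr5* stood at 132 and 131 CPM on day 3 and at 91.8 and 98.1 CPM on day 6. Of the 18 tested members of a list of BRCA1-BARD1 partners (such as *Brca2*, a recombination mediator), 0 were called in siBard1 (median −0.28) and 2 were called lower in nt. Over all genes tested, 9.72% were called in siBard1 and 4.03% were called lower in nt. At an adjusted p below 0.05 alone, 4 members were lower in siBard1 and 9 in nt, beside 17.7% and 27.1% of all genes.

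**Figure D1:**
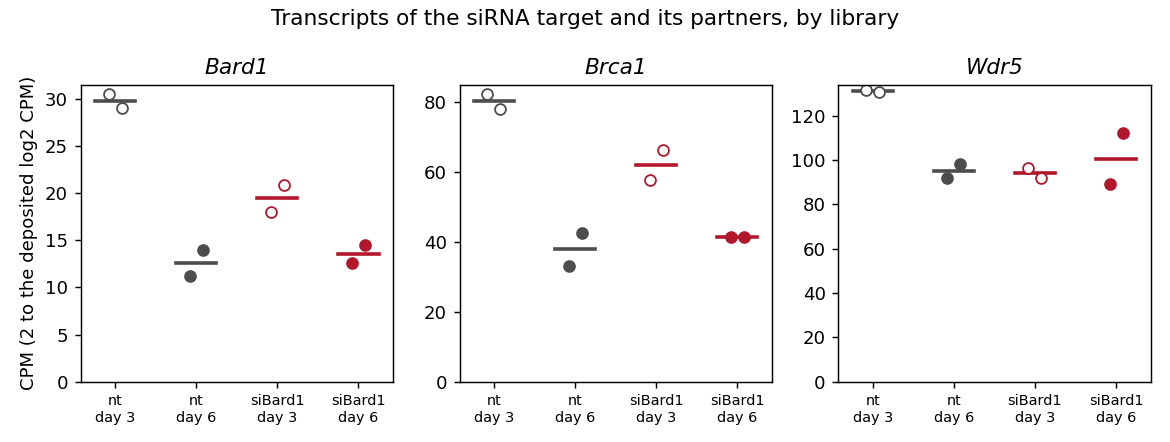
CPM of *Bard1*, *Brca1* and *Wdr5* (y axis) in each nt (grey) and siBard1 (red) library of day 3 (open) and day 6 (filled), with a line at the mean of the 2 libraries. *Bard1* in siBard1 was at 18.0 and 20.8 CPM on day 3, below nt. Both groups were lower on day 6, where they overlapped.

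Between day 3 and day 6 of siBard1, 1364 genes were called (adjusted p below 0.05 and an absolute log2 change above 1), which is 9.72% of the genes tested. Of these, 896 were higher on day 6 (6.39% of the genes tested) and 468 were lower (3.34%). All 1364 had values that did not overlap between the days, as had 69.4% of all genes tested. At an adjusted p below 0.05 alone, 2379 genes were higher (17.0%) and 2479 lower (17.7%), and the median change over all genes tested was −0.02 on the log2 scale. The nt course from day 3 to day 6 had 1659 calls (11.8%), 1094 higher (7.8%) and 565 lower (4.03%), and 27.1% of genes lower at an adjusted p below 0.05 alone.

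The siBard1 and nt courses share no library. Of the siBard1 calls, 821 were also called in nt, which is 60.2% of the siBard1 calls and 49.5% of the nt calls, and 820 of them had the same direction. Across the genes tested, the changes of the courses had a Pearson correlation of 0.80, over points that share libraries within each course, and a slope of 0.75 for siBard1 on nt. Among nt calls, 74.2% had a smaller absolute change in siBard1. Among siBard1 calls, 71.2% had a smaller absolute change in nt.

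**Figure D2:**
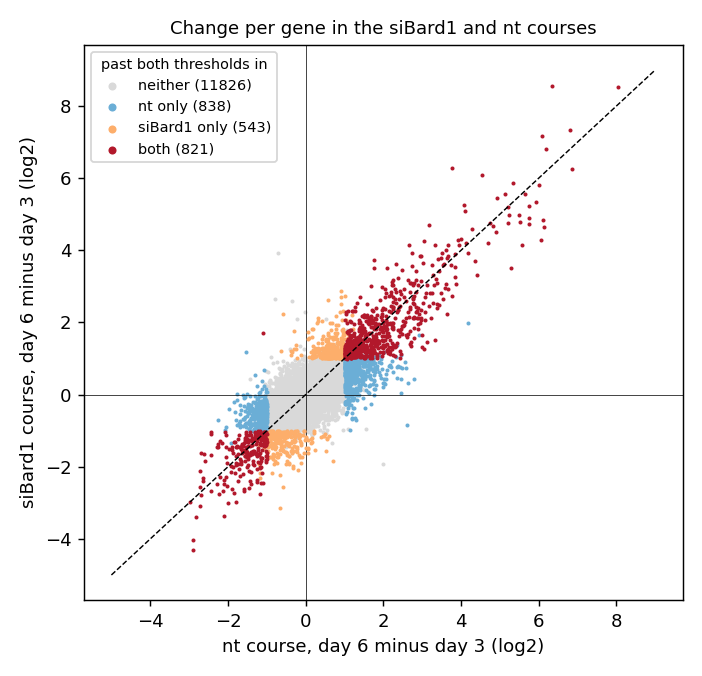
Log2 change from day 3 to day 6 of each tested gene in nt (x axis) and in siBard1 (y axis), with genes called in both courses in red (821), in siBard1 alone in orange, in nt alone in blue and in neither in grey. The dashed line marks equal change. Genes called in both lie along the diagonal in the same quadrants, apart from 1 gene.

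Epithelial genes rose together in the siBard1 course, in which 6.39% of all genes tested were called higher. Of 33 tested members of the epithelial list, 25 rose, 0 fell and 8 were not called, with a median log2 change of 2.13, and 5 further members were below the filter. A gene with few reads on day 3 could pass that filter only through libraries where it was higher, so counts and medians of lists with such genes are descriptions. The count was 25 without any 1 of the 4 libraries. Among them were the keratins of simple epithelia. *Krt8* went from 7.36 and 3.36 CPM on day 3 to 123 and 146 CPM on day 6 (26.9-fold, log2 change 4.75, SE 0.37, adjusted p = 4.30e-07), and its partner *Krt18* from 2.52 and 2.53 to 83.4 and 102 CPM (36.6-fold). Both genes have processed copies in the genome, and how the counting split reads among them is not given. The day 3 and day 6 libraries were far apart for both keratins.

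Adhesion and junction genes followed the same order of days. *Epcam*, an epithelial adhesion molecule, rose from 7.29 and 5.28 CPM to 69.2 and 105 CPM. *Cdh1*, which encodes E-cadherin, rose from 26.5 and 24.9 CPM to 78.3 and 108 CPM (3.58-fold, SE 0.22 on the log2 scale, adjusted p = 2.01e-05). Of the tight junction genes, *Cldn4* rose from 1.05 and 0.55 CPM to 21.6 and 26.6 CPM and *Cldn6* from 0.49 and 0.34 to 11.2 and 9.56 CPM. *Crb3*, a Crumbs polarity protein, went from 2 and 7 reads on day 3 to 165 and 328 reads on day 6. The regulators rose as well: *Esrp1*, a splicing factor of epithelial cells, from 0.91 and 0.71 to 11.3 and 19.2 CPM, and *Grhl2*, a transcription factor of epithelial cells, from 6 and 3 reads to 57 and 131 reads. The 8 tested members that were not called included desmosome and adherens junction genes, such as *Jup* (log2 change −0.29) and *Dsp* (0.15). At an adjusted p below 0.05 alone, 2 members of the list were lower.

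In the nt course the epithelial list had a median of 2.67, with 25 called higher. The difference between the courses (siBard1 minus nt) was below 0 for 24 of the 33 members, with a median of −0.28. It had an unadjusted p below 0.05 for 6 members, 4 of them below 0, and an adjusted p below 0.05 for 0 members (lowest 0.116), so it did not hold up for any single member. For *Krt18* the nt values were 3.76 and 4.30 CPM on day 3 and 115 and 190 CPM on day 6.

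Several genes of the pluripotency network that come on late had from 0 to 10 reads in a library on day 3 and from 56 to 1294 reads on day 6. Of 14 tested members of the late pluripotency list, 9 rose and 0 fell, with a median log2 change of 2.05, which is also 2.05 with the members that had no read on day 3 set to their lower bound. In nt 7 of the 14 rose, with a median of 1.27. Over all genes tested, 6.39% were called higher in siBard1 and 7.8% in nt. *Nanog*, a core factor of the pluripotency network, had 2 and 10 reads in the siBard1 libraries of day 3 and 858 and 1209 reads in those of day 6 (64.7 and 57.1 CPM). In nt it had 13 and 8 reads on day 3 and stood at 55.5 and 49.3 CPM on day 6.

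*Tdgf1*, which encodes the NODAL co-receptor Cripto, had 0 reads in both siBard1 libraries of day 3 and 766 and 971 reads on day 6. Against a floor of 3 reads per library it was at least 218-fold higher on day 6. *Dppa3*, a maternal factor that protects DNA methylation, had 0 reads in both libraries of day 3 and 239 and 267 reads on day 6, at least 59.8-fold higher. *Dppa5a* had 1 and 0 reads on day 3 and 1294 and 821 reads on day 6, and *Esrrb*, an orphan nuclear receptor of the naive network, had 0 and 2 reads on day 3 and 56 and 100 reads on day 6. On day 6 all 4 of these genes were read in both libraries, and of the 4 only *Dppa5a* was higher in replicate 1 than in replicate 2 by over 2-fold in CPM (97.4 against 38.8 CPM).

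*Tdgf1* stood at 57.7 and 45.9 CPM on day 6 in siBard1 and at 29.1 and 28.8 CPM in nt, where it had 8 and 1 reads on day 3. The difference between the courses had an adjusted p above 0.05 for all 14 late pluripotency genes (lowest 0.117). *Nr0b1*, a nuclear receptor family member of the same network, was at 0.98 and 1.70 CPM on day 3 and at 4.65 and 6.68 CPM on day 6 in siBard1, and at 5.94, 3.79, 7.81 and 4.52 CPM in the nt libraries. The nuclear receptor *Nr5a2* rose from 3.29 and 2.11 to 8.56 and 12.7 CPM.

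Of 17 tested genes of the early pluripotency list, 9 rose and 0 fell in siBard1, with a median of 1.04, against 9 that rose and a median of 1.19 in nt. These counts stand beside 6.39% of all genes called higher in siBard1 and 7.8% in nt. *Sall4*, a zinc finger factor that marks early reprogramming colonies, rose from 3.78 and 2.84 CPM to 20.4 and 26.3 CPM (7.08-fold, log2 change 2.82, SE 0.26, adjusted p = 1.44e-06). In nt it was at 8.38 and 6.87 CPM on day 3 and at 28.6 and 35.1 CPM on day 6, above siBard1 on both days. *Tdh*, the threonine dehydrogenase of pluripotent mouse cells, rose from 4.76 and 4.61 to 31.3 and 40.5 CPM. *Lin28a*, which blocks let-7 processing, had 0 and 1 reads on day 3 and 61 and 83 reads on day 6.

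The promoter of *Nanog* is shown because its transcript went from a few reads to over 50 CPM in 3 days of the course. A window of 250 bases before to 50 bases after its start in RefSeq (GRCm38.p6) holds TTTGCAT, part of the octamer that POU factors such as OCT4 bind, searched on both strands. The stretch lies at chr6:122707403-122707431 on the plus strand, and the motif is in capitals and begins 75 bases before the start.
*Nanog*: ttacagcttctTTTGCATtacaatgtcca
The same letters were found for 2 of the 9 tested late pluripotency genes that have a window (*Nanog* and *Sox2*). Among called ones with a window they were found for 1 of 7. A gene counts if any of its windows holds the letters. Counted by single window, which is a different unit, they were in 4.63% of all 32851 windows. A match is a description of the letters only.

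**Figure D3:**
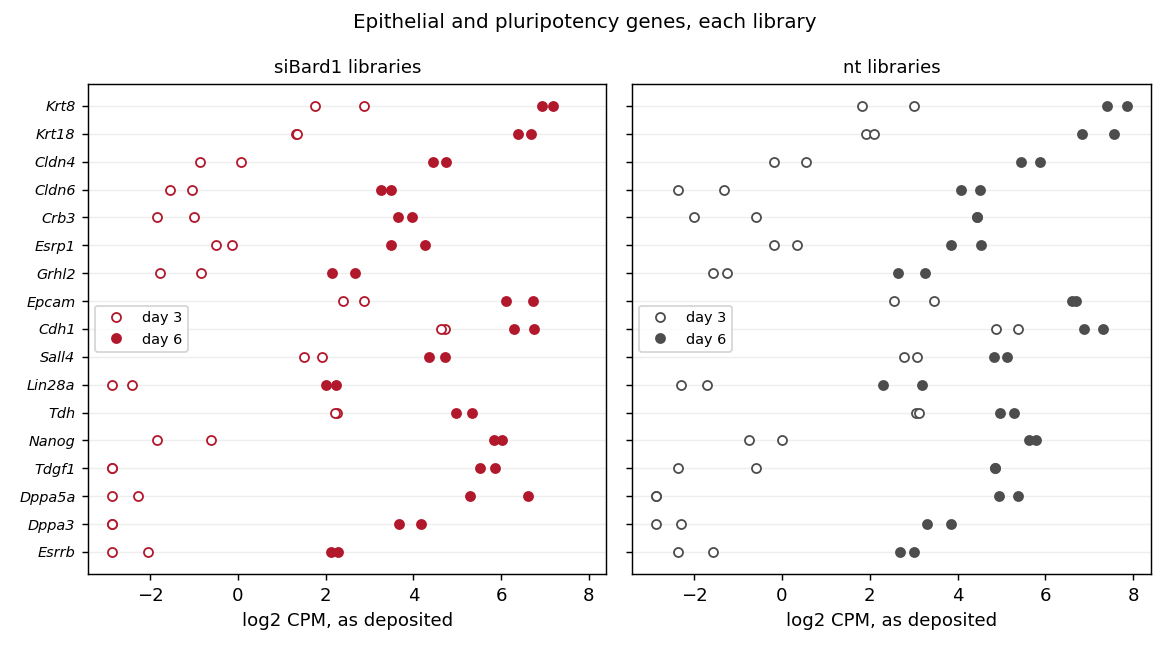
Deposited log2 CPM (x axis) of 17 epithelial and pluripotency genes (rows) in each siBard1 library (left, red) and each nt library (right, grey), with day 3 open and day 6 filled. In both panels the day 3 and day 6 libraries are apart for each gene drawn, and *Nanog*, *Tdgf1*, *Dppa5a* and *Dppa3* cover the largest distances.

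None of the 4 cassette genes passed both thresholds in the siBard1 course, and their median change was 0.32, against −0.76 in nt. The median was 0.64 without siBard1 day 3 replicate 1 and 0.004 without siBard1 day 3 replicate 2, and 1 of the 4 was called higher without siBard1 day 3 replicate 1 or siBard1 day 6 replicate 1. Reads of the introduced and the endogenous copies are counted together. *Pou5f1* (Oct4) was at 137 and 92.5 CPM on day 3 and at 173 and 231 CPM on day 6 in siBard1 (log2 change 0.83, SE 0.25, adjusted p = 0.0182), and at 219, 246, 205 and 241 CPM in the nt libraries. *Klf4* was at 428 and 288 CPM on day 3 and at 366 and 536 CPM on day 6 in siBard1, where the days overlapped, and went from 677 and 743 to 394 and 495 CPM in nt. *Sox2* and *Myc* overlapped between the days of siBard1 as well, with log2 changes of 0.31 and 0.16, and changed by −0.82 and −0.89 in nt. The difference between the courses was above 0 for all 4 genes, with a median of 1.03. It had an unadjusted p below 0.05 for 4 of 4 and an adjusted p below 0.05 for 0 (lowest 0.0840). The 4 genes are expressed from 1 cassette and are not 4 independent observations.

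The actin-myosin and serum response genes fell together in siBard1, where 3.34% of all genes tested were called lower. Of 23 tested members of this list, 20 fell, 0 rose and 3 were not called, with a median log2 change of −1.71 (15 to 22 fell when 1 siBard1 library was left out). The median member stood at a log2 CPM of 8.68 and 8.40 in the siBard1 libraries of day 3 and of 6.62 and 5.72 in those of day 6. *Acta2*, the smooth muscle actin of myofibroblasts, went from 2270 and 1767 CPM to 466 and 179 CPM (6.93-fold lower, log2 change −2.79, SE 0.31, adjusted p = 1.02e-05), and *Actg2*, the enteric smooth muscle actin, from 485 and 394 to 86.0 and 35.8 CPM. Actin genes are alike in sequence, so reads may be split among them. Day 6 replicate 1 was above replicate 2 for each, and both lay far below day 3.

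Regulators of contraction showed the same order. *Myl9*, a regulatory myosin light chain, fell from 315 and 248 to 85.8 and 37.9 CPM, and *Mylk*, the kinase that phosphorylates it, from 83.2 and 90.8 to 19.3 and 10.6 CPM. *Cnn1*, which encodes calponin, fell from 273 and 215 CPM to 63.4 and 26.2 CPM, and *Lmod1*, an actin nucleator of smooth muscle, from 105 and 77.6 to 23.6 and 8.62 CPM. Of the targets of YAP and SRF signaling, *Ctgf* fell from 133 and 118 to 33.8 and 7.53 CPM and *Ankrd1* from 82.8 and 77.6 to 20.7 and 8.52 CPM. The members not called were *Myh9* (log2 change −0.95, adjusted p = 0.000569) and *Tpm4* (−0.98), which missed the size threshold, and *Srf* itself (−0.33, adjusted p = 0.0769).

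The median member stood higher in siBard1 on day 3 than in nt, where it was at a log2 CPM of 6.90 and 7.22 on day 3 and of 5.56 and 5.45 on day 6. *Acta2* was at 671 and 832 CPM on day 3 and at 131 and 103 CPM on day 6 in nt, a log2 change of −2.69. In nt the list had a median of −1.46, with 16 of 23 called lower. Of the 23 members, 21 had a difference between the courses below 0, with a median of −0.24, and 3 of them an unadjusted p below 0.05 (lowest adjusted p 0.134).

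SRF binds the CArG box. Promoter stretches that hold one are shown for the called members of the list in which it was found, since they show the element in genes that fell, with the box in capitals and GRCm38.p6 positions.
*Acta1*, chr8:123894829-123894858, minus strand: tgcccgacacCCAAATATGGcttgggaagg
*Cnn2*, chr10:79988534-79988563, plus strand: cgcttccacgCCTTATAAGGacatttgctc
*Myl9*, chr2:156775293-156775322, plus strand: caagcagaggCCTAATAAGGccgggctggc
*Vcl*, chr14:20929161-20929190, plus strand: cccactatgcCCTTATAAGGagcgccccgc
The box, searched on both strands, was found for 5 of the 18 tested members of the list that have a window. Among called members with a window it was found for 4 of 15. A member counts if any of its windows holds the box. Counted by single window, which is a different unit, it was in 1.63% of all windows. The other member with a box was *Srf*, which was not called. In siBard1, *Acta1* (skeletal actin) fell from 54.2 and 38.1 to 14.0 and 4.0 CPM, *Cnn2* (a non-muscle calponin) from 458 and 362 to 240 and 148 CPM, and *Vcl* (vinculin of focal adhesions) from 585 and 476 to 217 and 144 CPM. The changes of the 4 genes with a box (−2.60, −1.11, −2.29 and −1.58 in the order of the sequences) lie within the range of the list. No match in another window says nothing about SRF there.

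**Figure D4:**
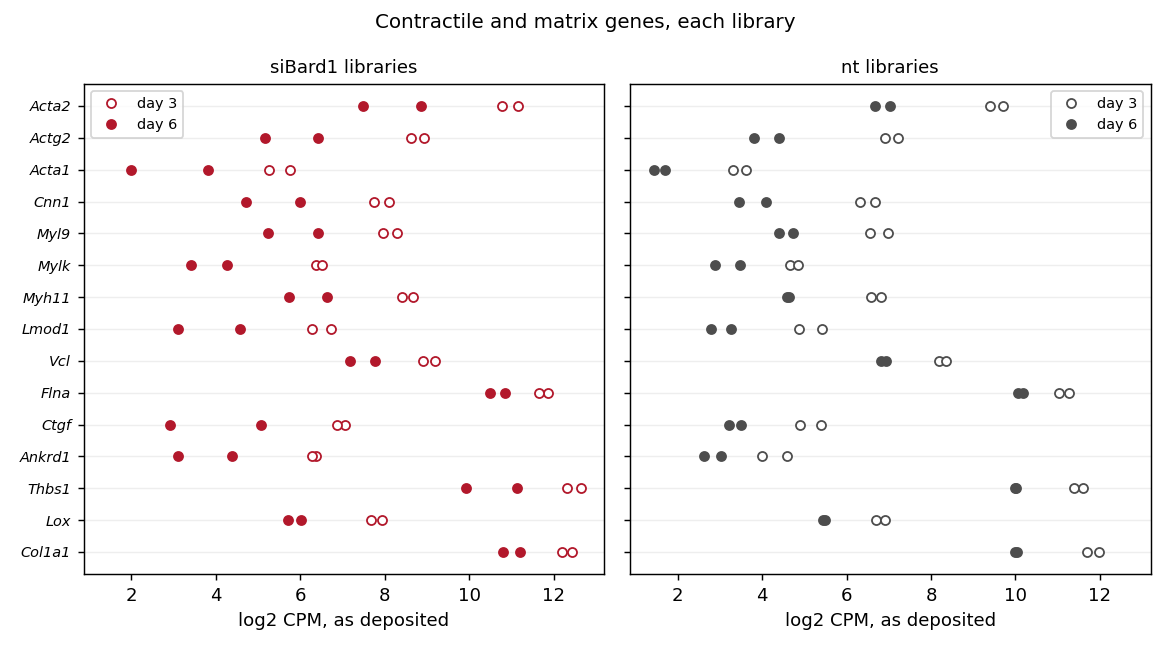
Deposited log2 CPM (x axis) of 15 contractile and matrix genes (rows) in each siBard1 library (left, red) and each nt library (right, grey), with day 3 open and day 6 filled. Day 6 lies below day 3 for each gene in both panels, and siBard1 starts above nt on day 3.

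Transcripts of extracellular matrix genes moved in both directions. Over all genes tested, 6.39% were called higher and 3.34% lower in siBard1. Of 21 tested collagens, 8 fell and 5 rose, and of 29 matrix glycoproteins and proteoglycans 8 fell and 8 rose, with medians of −0.79 and 0.05. Of the glycoproteins and proteoglycans, 5 fell and 7 rose without siBard1 day 6 replicate 2, and 10 fell and 6 rose without siBard1 day 6 replicate 1. *Col1a1*, the chief fibrillar collagen of fibroblasts, fell from 5581 and 4701 CPM to 2344 and 1793 CPM, and *Fn1* (fibronectin) from 3265 and 2931 to 1442 and 1248 CPM. *Thbs1*, which activates latent TGF-β, fell from 6381 and 5105 to 2263 and 980 CPM (log2 change −1.94, SE 0.28, adjusted p = 1.04e-04). These fibrillar and provisional matrix transcripts remained abundant on day 6.

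Other matrix genes rose. The small leucine-rich proteoglycans moved in opposite directions: *Dcn* (decorin) rose from 23.5 and 21.5 CPM to 270 and 271 CPM (12.0-fold, log2 change 3.59, SE 0.17, adjusted p = 1.08e-08) and *Lum* (lumican) from 16.8 and 7.83 to 146 and 207 CPM, while *Ogn* (osteoglycin) fell from 24.1 and 32.9 to 4.42 and 4.14 CPM. *Spp1* (osteopontin) rose from 119 and 105 to 655 and 929 CPM. Of the collagens, *Col18a1*, a basement membrane collagen, rose from 214 and 168 to 547 and 961 CPM, and *Col3a1* from 786 and 666 to 1433 and 1938 CPM. *Col2a1*, the cartilage collagen, fell from 31.5 and 25.1 to 9.69 and 2.40 CPM.

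Transcripts of matrix-modifying enzymes changed too. *Lox*, which cross-links collagen and elastin, fell from 244 and 206 to 64.7 and 51.9 CPM, and with *Loxl2* it was 1 of 2 called among 16 tested lysyl oxidases and collagen-modifying enzymes (median −0.28). Over all genes tested, 9.72% were called. Of 20 tested proteases and inhibitors (median −0.09), 6 fell and 3 rose, the 3 being the matrix metalloproteinases *Mmp3*, *Mmp10* and *Mmp13*. *Mmp3* (stromelysin) rose from 4.34 and 3.77 to 116 and 209 CPM (38.5-fold, SE 0.28 on the log2 scale, adjusted p = 1.43e-08). *Adamts5*, which cleaves aggrecan, fell from 129 and 135 to 31.3 and 28.3 CPM.

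Fibroblast identity genes differed by list. Of 23 tested mesenchymal transcription factors, 0 were called (1 to 2 when siBard1 day 3 replicate 1, day 3 replicate 2 or day 6 replicate 1 was left out), with a median of −0.32, and 8 were lower and 5 higher at an adjusted p below 0.05 alone. Of 18 members of the fibroblast surface marker list (median −0.19) 5 were called, beside 9.72% of all genes. *Pdgfra* (log2 change 1.51, from 82.5 and 77.1 to 205 and 250 CPM) and *S100a4* (1.15), which encodes a cytosolic protein, rose. *Cdh2* (−1.02), *Itga5* (−1.09) and *Vcam1* (−1.22) fell. Without siBard1 day 6 replicate 2, 0 members of this list passed both thresholds as lower, and 1 did without siBard1 day 3 replicate 1. *Cdh2*, which encodes N-cadherin, was also the 1 called gene of 10 tested cadherins outside the epithelial list (median −0.12), a call lost without siBard1 day 3 replicate 1 or siBard1 day 6 replicate 2. Of 31 Hox genes 5 fell and 0 rose, all of them at low levels (*Hoxa2*, *Hoxa3*, *Hoxa4*, *Hoxa5* and *Hoxc5*, at most 10.7 CPM on day 3), and the median was −0.58. The Hox count stands beside 3.34% of all genes called lower. It rests on single libraries: 13 fell without siBard1 day 6 replicate 1 and 0 without siBard1 day 6 replicate 2.

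Among signaling genes, 3 of 23 tested members of the TGF-β pathway fell (*Tgfb3* and *Inhba* among them) and 3 rose (*Tgfbi*, *Nodal* and *Gdf3*), with a median of −0.05. The counts of these signaling lists stand beside 6.39% of all genes called higher and 3.34% called lower. *Tgfb3*, a ligand, fell from 237 and 196 to 54.8 and 37.4 CPM. *Nodal* rose from 12 reads in each library of day 3 to 54 and 90 reads on day 6. Of 29 tested BMP and Wnt genes 7 rose and 1 fell: the ligand *Bmp2* rose from 6.10 and 4.29 to 15.5 and 32.3 CPM and the Wnt target *Sp5* had a log2 change of 1.97 (list median 0.20). The count that fell was 4 without siBard1 day 6 replicate 1 and 0 without siBard1 day 6 replicate 2. Of 25 FGF, PDGF and IGF genes 4 rose and 3 fell (5 without siBard1 day 6 replicate 1), with *Dusp6* and *Etv4*, feedback targets of FGF signaling, among those that rose (1.37 and 1.20), and the median was 0.36.

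The replication and mitosis lists had medians near 0 in siBard1 and below 0 in nt. Of 39 tested DNA replication genes only *Gmnn* (geminin, the inhibitor of CDT1) was called in siBard1 (2 genes with any 1 library left out), from 18.6 and 19.3 to 58.2 and 52.3 CPM, and the median change was 0.09. In nt 6 of the 39 were called lower, and 21 were lower at an adjusted p below 0.05 alone, with a median of −0.62. The median replication gene was at a log2 CPM of 5.50 and 5.38 on day 3 and of 5.64 and 5.62 on day 6 in siBard1, and went from 6.07 and 6.02 to 5.37 and 5.51 in nt. The nt libraries of day 3 stood above all other 6. Of all genes tested, 9.72% were called in siBard1, and 4.03% were called lower in nt.

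The difference between the courses was above 0 for 39 of 39 replication genes, with a median of 0.67, beside 56.9% of all genes tested. It had an unadjusted p below 0.05 for 26 of them and an adjusted p below 0.05 for 0 (lowest 0.0615). With libraries centred on their median gene it was above 0 for 39 (47.6% of all genes) and with quantile normalization for 38. The mitosis list behaved alike: 0 of 38 were called in siBard1 (median −0.12) and 12 were called lower in nt (median −0.79), and the difference was above 0 for 37 of 38, with an adjusted p below 0.05 for 0 (lowest 0.0751). An example, chosen after its values were seen, is *Pold2*, a subunit of DNA polymerase δ, with a log2 change of 0.09 in siBard1 and −0.87 in nt.

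Of 36 tested homologous recombination and Fanconi anemia genes 2 rose in siBard1, *Rpa3* (11.5 and 13.0 to 36.5 and 29.9 CPM), a subunit of the single-strand binding protein RPA, and *Chek1* (23.5 and 24.1 to 49.4 and 51.5 CPM), the checkpoint kinase, a share below the 6.39% of all genes called higher, and the median was −0.01 against −0.43 in nt. Of 19 cell cycle inhibitors and cyclins (median 0.02) *Cdkn1c*, an imprinted CDK inhibitor, rose (9.60 and 9.39 to 30.7 and 46.5 CPM) and *Rb1* fell (52.8 and 56.5 to 24.2 and 23.0 CPM). Of 22 p53 target genes 0 were called in siBard1 (median −0.09) and 3 were called higher in nt (median 0.18). At an adjusted p below 0.05 alone, 4 p53 targets were higher and 4 lower in siBard1. Of all genes tested, 9.72% were called in siBard1.

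**Figure D5:**
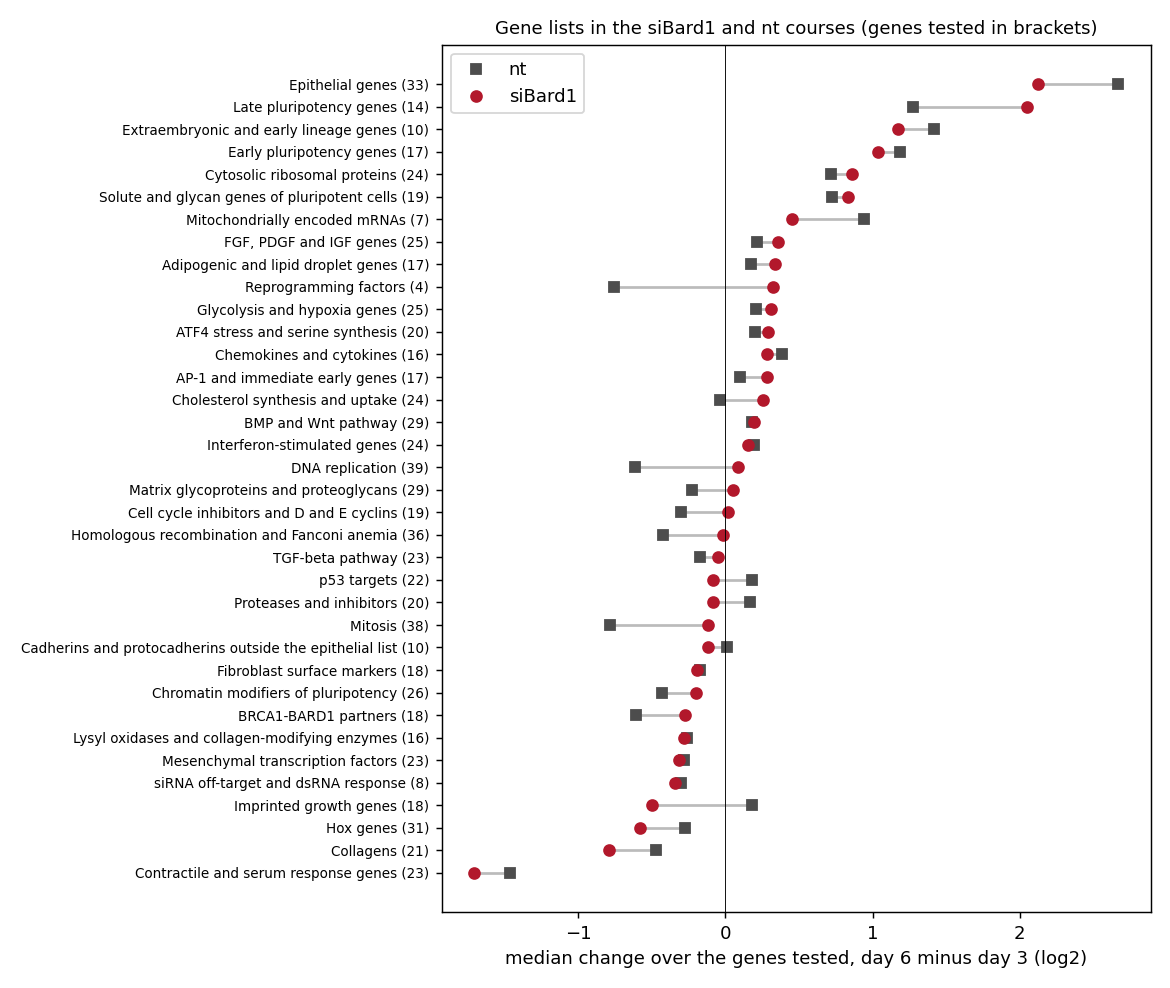
Median log2 change from day 3 to day 6 (x axis) over the tested members of each gene list (rows, number tested in brackets; lists with at least 4 tested) in siBard1 (red circles) and nt (grey squares). Epithelial and pluripotency lists are to the right and contractile genes to the left in both courses, and the replication and mitosis lists lie near 0 in siBard1 and at −0.62 and −0.79 in nt.

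Metabolic and translation genes moved in part, beside 6.39% of all genes called higher in siBard1. Of 24 cytosolic ribosomal protein genes 7 rose and 0 fell, and 20 were higher at an adjusted p below 0.05 alone, with a median of 0.86 (0.72 in nt). The count of 7 was 11 without siBard1 day 3 replicate 1 or without siBard1 day 6 replicate 2, and 5 without siBard1 day 3 replicate 2. *Rps18* rose from 562 and 458 to 1418 and 1165 CPM. Ribosomal protein genes have many processed copies, so these values depend on how reads were assigned. Of 7 mitochondrially encoded mRNAs 0 were called, with a median of 0.46, and 3 were higher in nt, with a median of 0.94.

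Of 25 glycolysis and hypoxia genes 6 rose and 2 fell (1 without siBard1 day 3 replicate 2 and 0 without siBard1 day 6 replicate 2), with a median of 0.31. *Slc2a3*, a high-affinity glucose transporter, rose from 10.1 and 12.6 to 134 and 129 CPM (11.7-fold, log2 change 3.55, SE 0.19, adjusted p = 1.43e-08), *Slc2a1* from 63.8 and 50.0 to 129 and 146 CPM, and the lactate transporter *Slc16a3* from 2.52 and 2.27 to 7.13 and 17.4 CPM. Of 19 members of a list of solute, glycan and other genes of pluripotent cells (median 0.83) 9 rose. Among them were 3 that are neither solute transporters nor glycan genes. *Trh*, which encodes thyrotropin-releasing hormone, had the largest rise among genes averaging a log2 CPM of 3 or more in siBard1 (0.91 and 1.49 to 91.1 and 89.8 CPM). The others were *Apoe* (18.2 and 15.2 to 85.5 and 89.5 CPM) and the metallothionein *Mt1* (47.4 and 35.3 to 230 and 204 CPM). Of 24 cholesterol genes (median 0.25) *Fdps* and *Msmo1* rose (4 genes without siBard1 day 3 replicate 1). Of 20 genes of ATF4 stress and serine synthesis (median 0.29) *Slc7a11*, *Cth* and *Nupr1* rose (5 genes without siBard1 day 6 replicate 1 and 1 without siBard1 day 6 replicate 2). Of 17 adipogenic genes (median 0.34) 0 were called (5 without siBard1 day 6 replicate 1, 3 without siBard1 day 3 replicate 1, 1 without siBard1 day 3 replicate 2, and 6 in nt, all higher). The counts of this paragraph stand beside 6.39% of all genes called higher and 3.34% called lower in siBard1.

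Calls among immune genes differed by list. Of 24 tested interferon-stimulated genes (median 0.15) 2 rose, *Bst2* and *H2-K1*, beside 6.39% of all genes called higher. *H2-K1*, an MHC class I gene, went from 17.0 and 11.7 to 51.0 and 43.5 CPM. Of 16 chemokines and cytokines (median 0.28) 3 rose and 2 fell, 5 calls beside 9.72% of all genes, and *Il6* fell from 46 and 71 reads on day 3 to 10 and 6 reads on day 6. Of 17 AP-1 and immediate early genes (median 0.28) 0 were called (2 without siBard1 day 6 replicate 2) and 6 were higher at an adjusted p below 0.05 alone. Of 8 tested genes of the double-stranded RNA response, which siRNAs can trigger, 0 were called, with a median of −0.35 in siBard1 and −0.31 in nt.

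Of 21 genes of a germline list 3 were tested, 3 were below the filter and 15 were not in the table, so no count or median of the list is given. *Rhox6*, a homeobox gene of the X-linked Rhox cluster, had 0 reads in both siBard1 libraries of day 3 and 207 and 663 reads on day 6, at least 74.0-fold higher. *Rhox5* of the same cluster had 0 reads in both libraries of day 3 and 322 and 73 reads on day 6, at least 16.4-fold higher, with replicate 1 well above replicate 2. With no read on day 3 in siBard1, both could pass the filter only through other libraries. The third tested gene of the germline list, *Piwil2*, rose by a log2 change of 1.59. Of 10 tested extraembryonic and early lineage genes (of 26, with 11 below the filter; median 1.17) 6 rose and *Gata6* fell, the latter not without siBard1 day 3 replicate 1 or siBard1 day 6 replicate 2, and *Tfap2c* rose from 1.19 and 1.38 to 11.3 and 16.8 CPM. Of 18 imprinted growth genes (median −0.50, against 0.18 in nt) *Phlda2* (5 and 2 reads to 155 and 167 reads) and *Cdkn1c* rose and *Meg3* (−1.40) and *Plagl1* (−1.05) fell (1 without siBard1 day 3 replicate 1 or siBard1 day 6 replicate 2). Of 26 chromatin modifiers (median −0.20) *Dnmt3b*, *Dnmt3l*, *Tet1* and *Dpy30* rose (2 without siBard1 day 3 replicate 2). The counts of the extraembryonic, imprinted and chromatin lists stand beside 6.39% of all genes called higher and 3.34% called lower.

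Some of the largest changes lay outside these lists. Among the 15 largest rises of genes averaging a log2 CPM of 3 or more in siBard1 were *Mylpf*, a fast skeletal myosin light chain (2.38 and 1.80 to 143 and 102 CPM), *Agtr2*, the type 2 angiotensin receptor (2.17 and 1.90 to 54.8 and 86.8 CPM), *Nlrp12* (2.31 and 1.96 to 44.0 and 32.3 CPM), the urea transporter *Slc14a1* (7.92 and 6.84 to 99.6 and 170 CPM) and *Apela*, an apelin receptor ligand of early embryos (1.96 and 3.51 to 34.0 and 40.9 CPM). *Tnn*, the tenascin family member tenascin N, rose from 9.67 and 6.32 to 151 and 70.6 CPM, against 39.1 and 28.3 CPM on day 6 of nt. Among the 15 largest falls were *Hmcn1* (hemicentin, 32.0 and 29.7 to 3.52 and 5.84 CPM), the endocytic receptor *Lrp2* (22.1 and 24.6 to 4.80 and 3.86 CPM) and *Prss23*, a serine protease (59.2 and 59.0 to 14.3 and 7.77 CPM).

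Markers of other cell types were read at different levels. The summed level of 9 fibroblast markers was 8633 and 7411 CPM on day 3 and 5760 and 5866 CPM on day 6. This sum hides opposite changes. *Col1a1*, the 1 marker called lower, went from 5581 and 4701 to 2344 and 1793 CPM. The 4 called higher were *Col3a1*, *Pdgfra*, *Dcn* and *Lum*. That of the 5 macrophage markers in the table was 8.99 to 15.2 CPM in the 4 siBard1 libraries, with *Adgre1* at 0, 1, 0 and 6 reads, and that of 5 endothelial markers 16.5 to 48.5 CPM, with *Cdh5* at 0, 0, 4 and 13 reads. The summed level of 3 skeletal muscle markers went from 92.7 and 77.4 to 44.2 and 22.3 CPM, of which *Des* made up most, and that of 4 keratinocyte markers went from 1.33 and 1.14 to 4.96 and 6.22 CPM. The 5 neural markers summed to 224 and 200 CPM on day 3 and 260 and 290 CPM on day 6, and *Stmn2* (stathmin 2) was the 1 of them called higher. On day 6 this sum was above that of the pluripotency markers. The 1 erythroid marker in the table, *Alas2*, had 12 to 46 reads. The 4 extraembryonic endoderm markers in the table summed to 8.31 to 12.7 CPM, the 5 trophoblast markers went from 2.80 and 3.07 to 16 and 22.5 CPM, and the 8 pluripotency markers from 0.21 and 0.68 to 250 and 168 CPM. Their part in the results was not tested.

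Few single genes were called for a difference between the siBard1 and nt courses. With 2 libraries per group, a gene without a call is not shown to change alike in both. The difference passed both thresholds for 6 genes (0.0428% of the genes tested), 2 with a more positive change in siBard1 (0.0143%) and 4 with a more negative one (0.0285%), and 2694 genes had an unadjusted p below 0.05. With libraries centred on their median gene there were 26 calls, 4 positive and 22 negative, and with quantile normalization 16, 3 positive and 13 negative. The count was 184 with the compared groups alone in the fit and 67 with a replicate block. Leaving out 1 library at a time gave 0 to 20 calls. There were 0 without either library of nt day 3, either library of nt day 6 or siBard1 day 6 replicate 2, 3 without siBard1 day 3 replicate 2 and 20 without siBard1 day 6 replicate 1.

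*Tgfbi*, a matrix protein induced by TGF-β, was at 96.1 and 80.9 CPM on day 3 and at 177 and 198 CPM on day 6 in siBard1, and at 109, 113, 92.0 and 79.6 CPM in the nt libraries in the same order. It rose in siBard1 and was not called in nt, a difference of 1.46 on the log2 scale (SE 0.20, adjusted p = 0.0148). *Stmn2*, a tubulin-binding protein, rose in both courses, from 27.8 and 22.4 to 136 and 155 CPM in siBard1 and from 30.3 and 25.8 to 70.0 and 70.9 CPM in nt (difference 1.21, SE 0.20, adjusted p = 0.0378).

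The 4 genes with a more negative change started higher on day 3 in siBard1 than in nt. *Lipg* (endothelial lipase) was at 32.5 and 27.5 CPM on day 3 and at 11 and 10.3 CPM on day 6 in siBard1, and at 9.57, 8.01, 8.85 and 8.83 CPM in nt (difference −1.50, SE 0.21, adjusted p = 0.0148). *Sema3a*, a secreted guidance cue, was at 22.4, 27.9, 16.5 and 19.2 CPM in siBard1 and rose from 10.2 and 12.8 to 22.7 and 25.3 CPM in nt (difference −1.56). *Aif1l*, an actin-bundling protein, was at 79.3, 71.5, 44.5 and 47.6 CPM in siBard1 and at 31.7, 33.1, 45.5 and 45.3 CPM in nt (−1.20). *Nectin2*, an adherens junction protein, was at 57.2, 45.0, 38.7 and 32.5 CPM in siBard1 and at 32.9, 37.6, 51.0 and 54.2 CPM in nt (−1.10).

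Against the siBrca1 course, 104 genes differed (0.741%), 52 in each direction (0.371% and 0.371%). This comparison and the next share the siBard1 libraries with the comparison to nt. *Brca1* stood at 37.5 and 19.4 CPM in the siBrca1 libraries of day 3, so their replicates differed in the targeted transcript, and the count ran from 0 to 713 when 1 library was left out. It was 713 without siBrca1 day 3 replicate 1, 472 without siBrca1 day 6 replicate 1, 255 without siBard1 day 3 replicate 1, 10 without siBard1 day 6 replicate 1, and 0 without siBrca1 day 3 replicate 2, siBrca1 day 6 replicate 2 or siBard1 day 3 replicate 2. With libraries centred on their median gene there were 97 (33 positive and 64 negative) and with quantile normalization 43 (14 and 29).

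Among called genes averaging a log2 CPM of 1 or more over the 8 libraries, those with the largest positive difference were *Hp*, *Dlx2*, *Prex1*, *Camkk1* and *C3* (1.69 to 1.92). *C3*, the central complement protein, rose from 4.48 and 3.62 to 13.0 and 10.4 CPM in siBard1 and stood at 13.3, 16.4, 11.3 and 15.4 CPM in siBrca1 (difference 1.69, SE 0.33, adjusted p = 0.0349). *Prex1*, a Rac exchange factor, rose from 3.99 and 2.32 to 7.35 and 8.29 CPM in siBard1 and stood at 7.07, 8.23, 7.07 and 4.52 CPM in siBrca1. The largest negative differences were those of *Rny1*, *Cenpk*, *Adgrv1*, *Lrrn3* and *2610020C07Rik* (−3.50 to −1.71). *Cenpk*, a kinetochore protein, was at 3.36, 4.81, 6.30 and 6.17 CPM in siBard1 and went from 2.05 and 1.12 to 7.33 and 9.44 CPM in siBrca1.

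The difference to siBrca1 was below 0 for 38 of 39 replication genes (median −0.52) and for 38 of 38 mitosis genes (median −0.68). For the contractile list it was above 0 for 23 of 23 (median 0.80, and for 22 with quantile normalization), and for the ATF4 stress list for 20 of 20 (median 0.72). Of all genes tested, 56.7% had a positive difference to siBrca1. The difference was called for 2 replication, 3 mitosis, 0 contractile and 0 ATF4 stress genes. Without siBrca1 day 3 replicate 2 it was called for 0 of all genes.

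Against the siWdr5 course, 7 genes differed (0.0499%), 4 positive (0.0285%) and 3 negative (0.0214%), with 0 to 60 when 1 library was left out, 60 without siBard1 day 6 replicate 1, 12 without siWdr5 day 6 replicate 1 and 2 without siWdr5 day 6 replicate 2, and 0 without each of the other libraries compared. *Mmp3* was at 11.5, 11.7, 95.0 and 78.7 CPM in siWdr5 and so rose less than in siBard1 (difference 2.37, SE 0.39, adjusted p = 0.0351). *Postn* (periostin) rose from 33.6 and 27.2 to 69.9 and 137 CPM in siBard1 and was at 30.8, 40.8, 24.3 and 24.8 CPM in siWdr5 (2.22). *Dcn* was at 44.7, 60.8, 163 and 263 CPM in siWdr5 (1.60), and *Tgfbi* at 181, 199, 160 and 190 CPM (1.21). *Lipg* (−1.52) and *Tcaf2* (−1.43), a regulator of TRP channels, had the more negative change in siBard1, as had *Calca* (−3.66), a gene of low level named here after its value was seen. The difference was above 0 for 13 of 39 replication genes, with a median of −0.07, beside 43.5% of all genes tested. For the contractile list it was above 0 for 1 of 23, with a median of −0.38. The difference of the 4 cassette genes was above 0 for 4 of 4, with a median of 0.96. Its adjusted p was above 0.05 for all 4 (lowest 0.339, for *Pou5f1*), and they are expressed from 1 cassette. The difference to siWdr5 was called for 0 replication, 0 contractile and 0 cassette genes.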

How the data were processed

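Bulk RNA was sequenced from 16 libraries (4 siRNA groups, 2 days, 2 libraries each). Per the submitters' notes and the labels, the authors aligned reads with STAR 2.5.2b to mm10 and made log2 CPM values with edgeR 3.20.9. The read counter and its annotation are not given in the sources used here. The deposited table holds these log2 values, with a prior count that scales with library size, and whole reads were recovered from its steps (within 0.1 of a whole number) for depth, read numbers and floors of 3 reads. The library sizes that the deposited values imply were 0.925 to 1.118 times the recovered total reads. CPM in the text is 2 to the power of the deposited value, so a gene with 0 reads is above 0 CPM by the prior.

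Group means over all 16 libraries were fitted with limma 3.58.1 (R 4.3.3, moderation with a trend), for the 14028 genes whose log2 CPM averaged 0 or more. Genes were called at a Benjamini-Hochberg adjusted p below 0.05 and an absolute log2 change above 1. Each p measures the spread between 2 libraries per group, pooled over groups (8 residual degrees of freedom). Fold changes are ratios on the deposited scale, which understates low genes.

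Named were the siRNA targets and OSKM, the 15 largest called rises and falls averaging a log2 CPM of 3 or more and with days apart, all members of lists with up to 20 tested or the 6 largest called of longer ones (and 2 against the median), and up to 10 called differences each way to nt and 5 to siBrca1 and siWdr5 among genes averaging a log2 CPM of 1 or more over the 8 libraries compared. *Cnn2*, *Myl9*, *Vcl*, *Myh9*, *Tpm4*, *Srf*, *Myh11*, *Flna*, *Col1a1*, *Col3a1*, *Fn1*, *Grhl2*, *Jup*, *Dsp*, *Pold2* and *Des* were chosen after their values were seen. The members and lists were chosen with earlier results of these data known. Promoter stretches came from RefSeq. Alternatives were the filter, log2(CPM + 1), 2 other scalings, limma-voom on the recovered reads, the groups in the fit, moderation without a trend, a replicate block and leaving out each library.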

Additional observations from a re-analysis of the deposited data

Results flagged for a closer look

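The difference between the siBard1 course and another course had an adjusted p below 0.05 (limma, Benjamini-Hochberg adjustment over all genes tested) and an absolute log2 value above 1 for 6 genes against nt, 104 against siBrca1 and 7 against siWdr5. Given here are, among those averaging a log2 CPM of 1 or more over the libraries compared, all 6 against nt, the 5 largest each way against siBrca1 and 6 against siWdr5. Groups of 2 libraries were not searched for a library that stood apart.

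Against nt the change from day 3 to day 6 was more positive in siBard1 for *Tgfbi* (1.46 on the log2 scale) and *Stmn2* (1.21). It was more negative for *Sema3a* (−1.56), *Lipg* (−1.50), *Aif1l* (−1.20) and *Nectin2* (−1.10). None of these 6 calls held without either library of nt day 3, either of nt day 6, or siBard1 day 6 replicate 2.

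Against siBrca1 it was more positive for *Hp* (1.92), *Dlx2* (1.83), *Prex1* (1.79), *Camkk1* (1.75) and *C3* (1.69), and more negative for *Rny1* (−3.50), *Cenpk* (−1.82), *Adgrv1* (−1.81), *Lrrn3* (−1.73) and *2610020C07Rik* (−1.71). *Rny1* had the largest standard error of these 10 (0.82). It stood at 4.27 and 8.09 CPM on day 3 and 6.38 and 1.69 CPM on day 6 in siBard1, and at 1.98, 1.26, 6.12 and 16.3 CPM in siBrca1. None of these 10 calls held without siBrca1 day 3 replicate 2, siBrca1 day 6 replicate 2 or siBard1 day 3 replicate 2.

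Against siWdr5 it was more positive for *Mmp3* (2.37), *Postn* (2.22), *Dcn* (1.60) and *Tgfbi* (1.21), and more negative for *Lipg* (−1.52) and *Tcaf2* (−1.43). These 6 calls were lost without either siWdr5 library of day 3, either siBard1 library of day 3 or siBard1 day 6 replicate 2. The differences share the siBard1 libraries, so a gene that stands in more than 1 of them (*Tgfbi*, *Lipg*) is not seen independently.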

How the results depend on the processing

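Between the days of siBard1, 1364 genes were called. The count was 816 among genes averaging a log2 CPM of 2 or more, 4858 at an adjusted p below 0.05 alone, and 1152 to 1452 when 1 library was left out. For nt, 1659 calls became 1021 and 6474 under the same choices and 1440 to 1776 with 1 library left out. The calls that were higher made up 65.7% of the siBard1 calls, 61.7% with libraries centred on their median gene and 56.3% with quantile normalization.

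The differences between courses moved more. Against nt, 6 calls became 184 with the compared groups alone in the fit, 2 without a trend, 26 centred, 16 with quantile normalization and 0 to 20 with 1 library left out. Against siBrca1, 104 became 0 with the compared groups alone, 0 without a trend, 43 with quantile normalization, 196 at an adjusted p alone and 0 to 713 with 1 library left out. Against siWdr5, 7 became 54 with the compared groups alone, 4 without a trend, 13 with limma-voom and 0 to 60 with 1 library left out. The cause was not tested.

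Replicate numbers do not mark a shared batch in the labels, and the correlation of the deviations of same-numbered libraries from their group means was −0.09 to 0.37 over pairs of groups (0.10 for the days of siBard1). With a replicate block there were 1402 calls in siBard1, 1688 in nt, 67 against nt, 195 against siBrca1 and 29 against siWdr5.

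Of 1957 alternative values for single genes, 1722 kept direction and side of the threshold, 220 lost the call, 7 gained it and 8 changed sign. The 8 were uncalled changes in siBard1 that turned with 1 library left out. Over the libraries left out, *Alas2* ranged from −0.99 to 0.28, *Dsp* from −0.079 to 0.39, *Myc* from −0.11 to 0.43, *Pold2* from −0.076 to 0.26, *Sox2* from −0.041 to 0.67 and *Wdr5* from −0.080 to 0.25, with the sign turning without siBard1 day 3 replicate 2 (the first 5) or siBard1 day 6 replicate 2 (*Dsp*, *Myc* and *Wdr5*). Of the named calls between the days, 17 were lost without siBard1 day 6 replicate 2 (*Cdh2*, *Cnn2*, *Col3a1*, *Des*, *Dnmt3l*, *Gata6*, *Itga5*, *Nupr1*, *Piwil2*, *Plagl1*, *Slc7a11*, *Vcam1* and the 5 Hox genes), 8 without siBard1 day 3 replicate 1 (*Cdh2*, *Cnn2*, *Dnmt3l*, *Gata6*, *Hoxa3*, *Hoxa4*, *Itga5* and *Plagl1*), 6 without siBard1 day 3 replicate 2 (*Dnmt3l*, *Dpy30*, *Hoxa2*, *S100a4*, *Sp5* and *Tgfbi*) and 3 without siBard1 day 6 replicate 1 (*Dpy30*, *Fdps* and *S100a4*). Of 480 list medians under alternatives, 13 changed sign.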
